A study of Rattus norvegicus with 56 samples.

Results

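The endoplasmic reticulum unfolded protein response was followed through 32 listed genes in 56 rat liver RNA libraries. The 32 genes are 3 stress sensors, the transcription factors Xbp1 and Creb3l3, 10 chaperones and their partners, 5 disulfide isomerases, the lectin chaperones Calr and Canx, genes of endoplasmic reticulum-associated degradation, and 3 subunits of the protein-conducting channel and its partner complex. They were listed by gene symbol, from what each is known to do, with earlier results of these data known. Of the 32 symbols, 31 have an entry among the 17337 genes of the count table, and all 31 passed the filter on low counts that left 11047 genes for testing. The expression of Derl2 is not analysed here, while its promoter window was among those searched.

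The unfolded protein response adjusts the folding capacity of the endoplasmic reticulum, where secreted and membrane proteins are made. When unfolded proteins accumulate, the sensors Ern1 (IRE1 alpha), Atf6 and Eif2ak3 (PERK) raise transcription of chaperones and degradation factors, and PERK slows translation. Hepatocytes secrete most plasma proteins and lipoproteins, and this response is known to be engaged in the liver by feeding and by fatty or sugar-rich diets.

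The rats were Sprague-Dawley offspring whose livers were collected at day 180, 4 h after lights on (zeitgeber time 4, ZT4) or 16 h after lights on (ZT16, during darkness) in a cycle with 12 h of light. CON dams and offspring ate regular chow throughout. For HFhf, dams went on a Western diet, with water that held 25% fructose, from gestation day 11, and the diet was kept up in the offspring. In both IUGR (intrauterine growth restriction) groups, dams received 50% of their calories as chow from gestation day 10 to birth. Afterwards the IUGR-RC group ate regular chow and the IUGR-HFhf group ate the HFhf diet. Each combination of diet, sex and time was represented by 3 or 4 animals. It was 3 in all CON groups, in both HFhf groups of ZT4, in male ZT4 IUGR-HFhf and in female ZT4 IUGR-RC, and 4 in the other 8. Each library is a separate animal as far as the labels tell, the litter is not given, and each animal was sampled at 1 time.

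Several members carry a stress element in the promoter, shown here because the factors of the response act through it. Of the members found below to vary with Hspa5 between animals, Hsp90b1, Hyou1, Dnajc3, Creld2 and Calr had a match. Pdia4 and Ppib varied with Hspa5 but had no match, and Manf, Pdia3 and Pdia6 were not searched. Herpud1, Xbp1, Derl3 and Dnajb11 had a match but did not pass in that comparison. Whether the element is related to this variation was not tested. The endoplasmic reticulum stress element (ERSE, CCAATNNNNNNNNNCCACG) and the shorter ERSE-II (ATTGG, 1 base of any kind, then CCACG) are known as binding sites of ATF6 and XBP1. In RefSeq promoter windows of the assembly GRCr8, from 250 bases before to 50 bases after a start site, 25 of the 32 members were searched. ERSE lay in 7 of the 25 genes (28%) and in 21 of all 33464 windows searched (0.0628%), with both strands searched. ERSE-II lay in 3 of the 25 (12%) and in 17 of all windows (0.0508%), and no gene held both. The members were listed as known genes of this response, so a higher share among them could be foreseen and is not a test. Each match is written below with 10 bases on either side, along the strand on which the element reads forward, with the element in capitals.
Xbp1 ERSE, chr14:84604548-84604586, plus strand: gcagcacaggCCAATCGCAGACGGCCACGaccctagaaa
Hspa5 ERSE, chr3:38452963-38453001, plus strand: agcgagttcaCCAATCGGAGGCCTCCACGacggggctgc
Hsp90b1 ERSE, chr7:23012441-23012479, minus strand: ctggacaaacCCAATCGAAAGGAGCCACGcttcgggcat
Hsp90b1 ERSE, chr7:23012337-23012375, plus strand: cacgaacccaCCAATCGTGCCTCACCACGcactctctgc
Hyou1 ERSE-II, chr8:53602684-53602714, minus strand: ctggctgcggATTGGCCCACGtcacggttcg
Hyou1 ERSE-II, chr8:53602784-53602814, minus strand: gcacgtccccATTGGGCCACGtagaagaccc
Dnajb11 ERSE-II, chr11:91672790-91672820, minus strand: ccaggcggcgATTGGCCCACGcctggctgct
Dnajc3 ERSE, chr15:102432524-102432562, plus strand: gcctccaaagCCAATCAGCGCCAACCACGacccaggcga
Creld2 ERSE, chr7:121789229-121789267, minus strand: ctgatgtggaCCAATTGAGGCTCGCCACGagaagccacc
Calr ERSE, chr19:40213125-40213163, minus strand: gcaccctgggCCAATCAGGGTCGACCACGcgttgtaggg
Herpud1 ERSE-II, chr19:10614811-10614841, minus strand: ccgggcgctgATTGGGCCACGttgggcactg
Derl3 ERSE, chr20:12766591-12766629, plus strand: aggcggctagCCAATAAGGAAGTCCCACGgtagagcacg

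Herpud1 and Hspa5 are given with their whole windows, because the results below turn on them and they follow different patterns. The strand is that of the gene, and the capitals again mark ERSE-II in Herpud1 and ERSE in Hspa5. Both windows were read 5′ to 3′.
Herpud1 promoter window, chr19:10614658-10614957, minus strand: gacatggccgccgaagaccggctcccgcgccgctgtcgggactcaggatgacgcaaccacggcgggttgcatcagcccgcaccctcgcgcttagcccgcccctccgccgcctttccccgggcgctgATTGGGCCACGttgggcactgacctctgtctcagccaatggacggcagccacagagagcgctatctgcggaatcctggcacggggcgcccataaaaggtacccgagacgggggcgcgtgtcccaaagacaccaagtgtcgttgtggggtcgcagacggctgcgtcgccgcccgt
Hspa5 promoter window, chr3:38452766-38453065, plus strand: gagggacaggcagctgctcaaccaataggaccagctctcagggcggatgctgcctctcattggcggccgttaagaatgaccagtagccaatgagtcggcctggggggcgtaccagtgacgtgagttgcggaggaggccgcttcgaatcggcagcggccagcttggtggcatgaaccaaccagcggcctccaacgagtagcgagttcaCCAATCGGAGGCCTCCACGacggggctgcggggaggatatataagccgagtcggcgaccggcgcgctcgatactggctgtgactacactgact

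The ERSE of Hspa5 lies from -43 to -25 relative to the start site and the ERSE-II of Herpud1 from -124 to -114. Herpud1 was also the 1 gene of the 25 with a C/EBP-ATF element (TGATGNAA), from -184 to -177 written TTGCATCA on the strand of the gene, an element that 3.98% of all windows hold. The E-box CACGTG, a known binding site of clock factors, lay in Dnajb9, Derl3 and Ssr1 (12%, against 6.42% of all windows). It was not found in the windows of Herpud1 and Edem1, and the cyclic AMP response element TGACGTCA in none of the 25 (1.83% of all windows). The core TGACGTGG of the unfolded protein response element overlaps an ERSE-II of Hyou1. These matches describe the letters of the windows and show no binding.

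Libraries held between 5549530 and 19065339 counted reads. The labels give polyA RNA as the molecule and a kit that removes ribosomal RNA in the protocol, both for all 56 libraries. Transcripts without a poly(A) tail were nearly missing from the IUGR-RC libraries, whose titles also belong to another number series: Rmrp, the RNA of ribonuclease MRP, lay between 2.29 and 10.5 CPM (the read count relative to the TMM-scaled library size) there and between 743 and 4072 CPM in the other 41. Diet history and title series therefore cannot be told apart when IUGR-RC is set against another diet, and the labels name no library batch. The times of IUGR-RC were compared within its titles. IUGR-RC titles start with M in males and F in females, while those of the other diets start with T in both sexes. Sex and title letter therefore cannot be told apart in IUGR-RC. Acta1, the actin of skeletal muscle, reached 1310 CPM in replicate 2 of female ZT4 IUGR-RC, 125 CPM in replicate 3 of male ZT16 HFhf and 20.3 CPM in replicate 2 of female ZT4 IUGR-HFhf, and at most 2.73 CPM elsewhere. Dbp, an output gene of the liver clock, reached 135 CPM in replicate 3 of female ZT4 IUGR-RC, with 3.38 and 3.86 CPM in the others of that group. These are called the 4 doubted libraries. Dbp also spread within ZT4 groups that hold none of the 4, such as male IUGR-RC (7.13, 5.65, 32 and 46.8 CPM) and female HFhf (12.7, 13.8 and 73.2 CPM). The hepatocyte markers summed to 142610 CPM or more in every library, with 10 of 10 detected, so that the liver label holds in these data. Of 10 plasma cell markers 6 are in the table, and they summed to between 129 and 212 CPM in CON (median 169), 104 and 187 CPM in HFhf (144), 127 and 202 CPM in IUGR-HFhf (146) and 133 and 269 CPM in IUGR-RC (195). Sdc1, which hepatocytes also express, made up most of these sums, with 97.4 to 263 CPM, while Mzb1 reached at most 0.867 CPM, Tnfrsf17 0.526 CPM, Pou2af1 2.18 CPM, Irf4 2.3 CPM and Prdm1 6.67 CPM. The 18 pancreatic acinar markers summed to between 1.68 and 2506 CPM (median 10.3 CPM). The highest sum was in female ZT4 IUGR-HFhf (18.6 to 2506 CPM, median 421 CPM), where 17 of 18 markers had a read. In each diet and time the female sums lay above the male sums, with 113 to 274 CPM against 1.68 to 6.55 CPM in CON at ZT4. The part of either list in the results, also in the sex comparisons, was not tested. In a bulk sample, fewer cells of a type and less RNA per cell cannot be told apart.

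Herpud1, an endoplasmic reticulum membrane protein that holds together the ubiquitin ligase complex of protein degradation, gave the clearest pattern of all members. Its levels are given for each library, in the order of the replicate numbers. In CON at ZT4 its level was 139, 109 and 194 CPM in the 3 males and 131, 136 and 116 CPM in the 3 females, and at ZT16 it was 235, 237 and 306 CPM in males and 204, 188 and 240 CPM in females. In chow-fed controls of each sex, the ZT4 libraries therefore lay below all ZT16 libraries. In HFhf at ZT4 it was 311, 282 and 316 CPM in males and 182, 191 and 296 CPM in females. At ZT16 in HFhf it was 256, 254, 273 and 271 CPM in males and 233, 247, 293 and 317 CPM in females. All HFhf libraries at ZT4 but those of female replicates 1 and 2 stood above the highest CON library of that time, which was a male at 194 CPM, and within each sex all stood above CON. In IUGR-HFhf at ZT4 the values were 257, 430 and 311 CPM in males and 299, 253, 228 and 226 CPM in females, all above every CON library at that time. In IUGR-HFhf at ZT16 they were 285, 211, 298 and 297 CPM in males and 210, 241, 242 and 238 CPM in females, which overlapped CON.

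**Figure D1:**
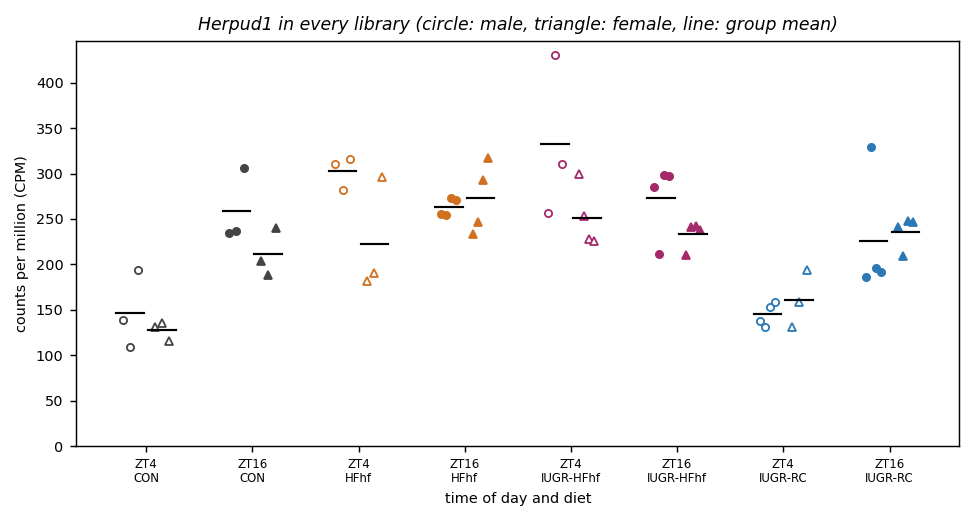
Herpud1 in each of the 56 libraries, in CPM on the vertical axis, by diet and time of day on the horizontal axis. Circles are males, triangles females and lines group means; at ZT4 the CON and IUGR-RC libraries sit between 109 and 194 CPM while the libraries of both HFhf diets sit between 182 and 430 CPM.

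On the HFhf diet Herpud1 was called higher at ZT4 and was not called at ZT16. Log2 fold changes, their standard errors (SE) and adjusted p-values are from edgeR's quasi-likelihood test, two-sided, with Benjamini-Hochberg adjustment over all 11047 genes in each comparison, and a gene was called at an adjusted p under 0.05. Against CON, HFhf had a log2 fold change of 1.04 (adjusted p = 0.0051, SE 0.194) in males at ZT4 and 0.80 (adjusted p = 0.0236, SE 0.193) in females at ZT4. At ZT16 it had 0.02 (adjusted p = 0.983) in males and 0.37 (adjusted p = 0.473) in females. IUGR-HFhf had 1.17 (adjusted p = 0.00131, SE 0.194) in males and 0.98 (adjusted p = 0.00256, SE 0.183) in females at ZT4, against 0.07 (adjusted p = 0.89) and 0.14 (adjusted p = 0.808) at ZT16. The difference of the diet effect between the times was itself tested, as ZT16 minus ZT4 and the mean of both sexes. It was -0.73 (adjusted p = 0.0459, SE 0.185) for HFhf, in a comparison with 0.670% of all genes called, and -0.97 (adjusted p = 0.00404, SE 0.182) for IUGR-HFhf, with 0.643% called. Of the 31 members Herpud1 was the 1 called in each of these. In the fits that left out 1 library at a time, the IUGR-HFhf difference was called in all 27 and the HFhf difference in 7 of 26 (values from -0.85 to -0.60). The HFhf difference also missed the threshold, at -0.72, without the filter on low counts. In fits of only the groups compared, Herpud1 was not called in HFhf females at ZT4 or in IUGR-HFhf males at ZT4. In the authors' deposited tables Herpud1 had an adjusted p under 0.05 in the same 4 comparisons, all at ZT4, and in none at ZT16.

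The clock gene Dbp also differed between these groups, and its relation to Herpud1 across libraries was not tested. In CON it was 3.56, 4.49 and 6.47 CPM in males and 3.61, 3.87 and 3.54 CPM in females at ZT4, and 139, 58.4 and 58.5 CPM and 75.2, 132 and 120 CPM at ZT16. In HFhf at ZT4 it was 115, 60.2 and 106 CPM in males and 12.7, 13.8 and 73.2 CPM in females, all above CON of that time, and at ZT16 it was 14.7, 12, 18 and 11 CPM and 16.3, 36.8, 53.6 and 43.6 CPM, all below CON of that time. In IUGR-HFhf at ZT4 it was 24.9, 76.8 and 77.7 CPM and 102, 36.1, 7.83 and 57.7 CPM. In IUGR-RC at ZT4, on chow, it was 7.13, 5.65, 32 and 46.8 CPM in males and 3.38, 3.86 and 135 CPM in females. Its ZT16 over ZT4 change was 4.12 (adjusted p = 0.00988) in CON males and -2.75 (adjusted p = 0.0433) in HFhf males, so that Dbp in HFhf males ran against the time on the labels. The core clock gene Per2, by contrast, rose from ZT4 to ZT16 in both diets, with 2.94 (adjusted p = 6.04e-09) in CON and 2.56 (adjusted p = 2.67e-07) in HFhf. At ZT16 the calls among 15 clock genes were 9 up and 4 down in CON, 5 and 3 in HFhf, 5 and 2 in IUGR-HFhf and 6 and 4 in IUGR-RC, where 13.2%, 10.2%, 25.7% and 20% of all genes were called. The part of this shift in the Herpud1 difference, in the other ZT4 differences of both HFhf diets and in their time comparisons was not tested.

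Across the 31 members, HFhf feeding was compared with CON by averaging the effects of the 4 combinations of sex and time, called strata here (14 against 12 libraries). Of the 31, 9 rose and 0 fell, where 7.94% of all genes were called, and 30 of 31 had a positive log2 fold change (96.8%), against 51.8% of all genes. Of the 30, Atf6, Eif2ak3, Dnajc3 and Canx had values that round to 0.01 or 0.00. The sign of Eif2ak3 turned with the scaling and the filter and that of Atf6 with the filter, and the signs of Dnajc3 and Canx were not followed through the alternatives. The median of the 31 was 0.15, against 0.01 over all genes. The changes were small: the 9 that rose lay between 0.20 and 0.56 on the log2 scale. By role, 1 of 3 sensors, 1 of 2 transcription factors, 3 of 10 chaperones and partners, 2 of 5 disulfide isomerases and 2 of 6 degradation genes rose, with 0 of 2 lectin chaperones and 0 of 3 channel subunits.

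**Figure D2:**
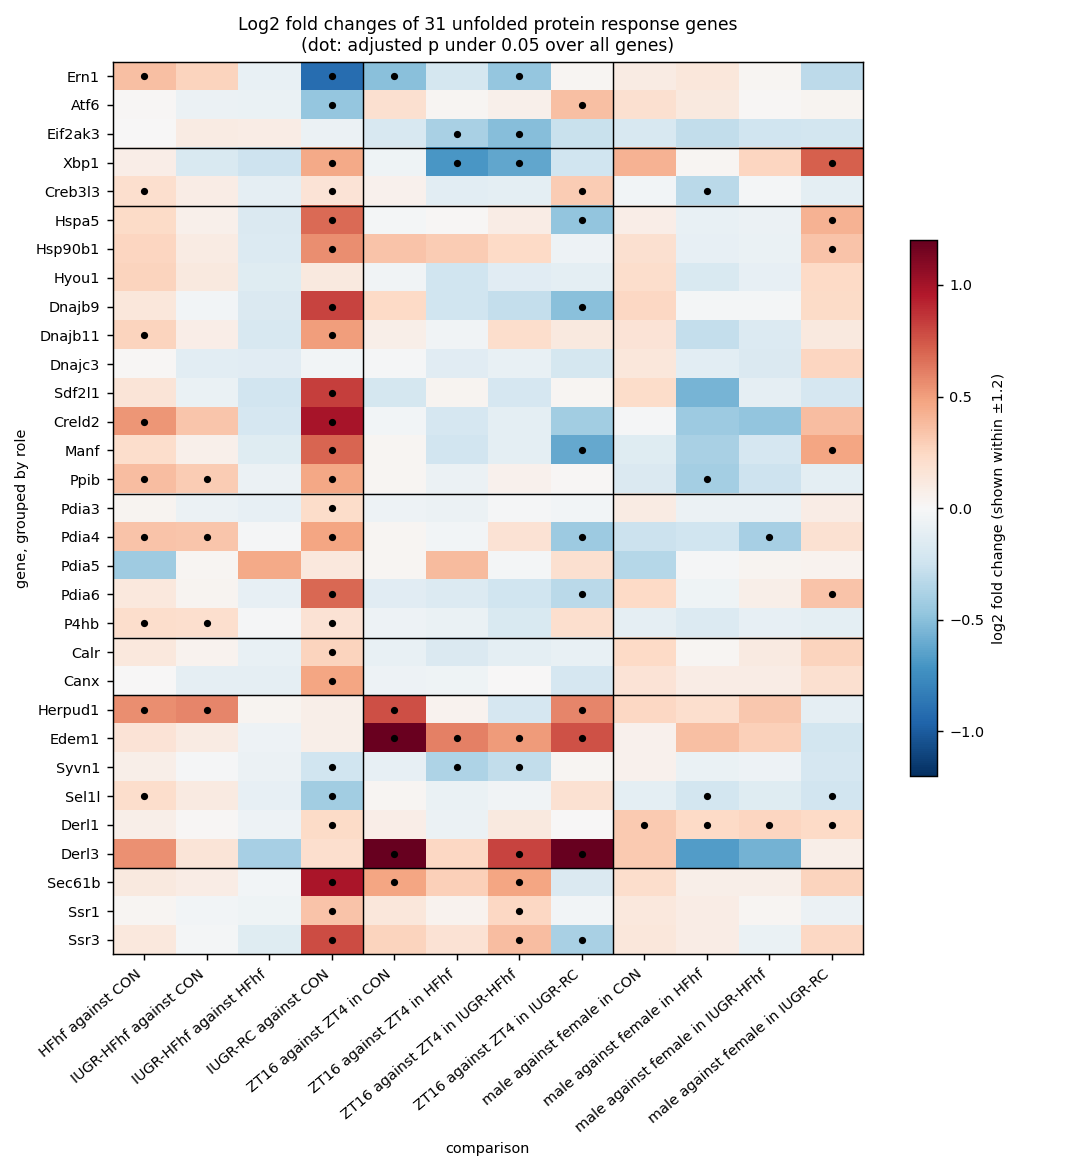
Log2 fold changes of the 31 members (vertical axis, grouped by role) in 12 comparisons (horizontal axis), as colour from blue (lower) to red (higher), shown within 1.2 in either direction, with a dot where the adjusted p over all genes was under 0.05. HFhf against CON has 9 dots, all of higher genes, IUGR-HFhf against CON has 4, and IUGR-HFhf against HFhf has 0.

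Among the sensors, Ern1 was the 1 that passed. It encodes IRE1 alpha, the kinase and endonuclease that splices the Xbp1 mRNA. In CON its level was 51.4, 42.9 and 61.2 CPM in ZT4 males, 32.6, 52.9 and 49.7 CPM in ZT16 males, 55.5, 64.6 and 58.5 CPM in ZT4 females and 34, 35.8 and 32.7 CPM in ZT16 females. In HFhf it was 73.4, 62 and 62.4 CPM, 62.8, 57.9, 58.2 and 60.1 CPM, 66.3, 49 and 72.4 CPM and 57.8, 58.2, 42.7 and 49 CPM in the same order. Every HFhf library was above every CON library of its stratum except in females at ZT4, where the ranges overlapped. The mean log2 fold change was 0.36 (adjusted p = 0.0111, SE 0.0948). Atf6, which is cut from the membrane under stress to enter the nucleus, had 0.01 (adjusted p = 0.969), and Eif2ak3, the kinase that slows translation, had 0.00 (adjusted p = 0.997). In IUGR-HFhf Ern1 was 60.3, 78 and 66 CPM, 44.5, 48.1, 49 and 46.5 CPM, 56.5, 80.9, 66.9 and 51.4 CPM and 39.3, 54.1, 51.4 and 51.4 CPM in that order, and its log2 fold change against CON was 0.27 (adjusted p = 0.0541, SE 0.0933). It passed in 5 of 27 fits without 1 library, those without male ZT4 CON replicate 3, male ZT16 CON replicate 2, female ZT4 IUGR-HFhf replicates 1 or 4 and female ZT16 IUGR-HFhf replicate 1. It also passed in 3 of 7 alternatives, namely voom (0.25), without the IUGR-RC libraries (0.27) and with only the groups compared (0.26).

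The transcription factors moved little with HFhf in the mean of strata. Creb3l3, which encodes CREBH, a membrane-bound factor of the liver with roles in lipid metabolism, averaged 297, 307, 301 and 314 CPM in CON and 313, 312, 427 and 357 CPM in HFhf (males at ZT4 and ZT16, then females at ZT4 and ZT16, an order kept for all group means below). Its log2 fold change was 0.20 (adjusted p = 0.0302, SE 0.0599), and the group means differed most in females at ZT4. Xbp1, whose spliced mRNA encodes the active factor, had 0.08 (adjusted p = 0.792). The counts are per gene, so spliced and unspliced Xbp1 were not distinguished.

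Chaperones and their partners rose in part. Ppib, the prolyl isomerase cyclophilin B, was 129, 132 and 133 CPM in CON males at ZT4, 128, 142 and 153 CPM in CON males at ZT16, 167, 168 and 135 CPM in CON females at ZT4 and 142, 170 and 137 CPM in CON females at ZT16. In HFhf it was 134, 169 and 140 CPM, 169, 203, 178 and 161 CPM, 328, 199 and 220 CPM and 171, 193, 171 and 213 CPM in the same order. Every HFhf library was above every CON library of its stratum, though in males at ZT4 (134 against 133 CPM) and females at ZT16 (171 against 170 CPM) the nearest were 1 CPM apart. Ppib had a mean log2 fold change of 0.37 (adjusted p = 0.000202, SE 0.0691). Creld2, a chaperone-like protein induced by stress, had 0.53 (adjusted p = 0.0253, SE 0.155), and Dnajb11 (ERdj3), a partner that brings clients to Hspa5, had 0.27 (adjusted p = 0.0314, SE 0.0819). Creld2 was 75.4, 26.7 and 22.3 CPM in the 3 HFhf females at ZT4, so that replicate 1 there was far above the others, against 27.5, 19.4 and 16.7 CPM in CON. Hspa5 (BiP), the main chaperone of the compartment and the usual readout of the response, was not called (0.23, SE 0.104, adjusted p = 0.202).

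Among the disulfide isomerases, Pdia4 (ERp72) and P4hb were called. Pdia4 averaged 317, 345, 408 and 385 CPM in CON and 384, 463, 556 and 444 CPM in HFhf, with a log2 fold change of 0.34 (adjusted p = 0.0201, SE 0.0966). P4hb, which is also a subunit of the complex that loads lipid onto apolipoprotein B, averaged 1369, 1305, 1467 and 1425 CPM in CON and 1495, 1547, 1832 and 1585 CPM in HFhf (0.21, SE 0.0641, adjusted p = 0.03). Both means were higher in HFhf in all 4 strata. Pdia5 was the 1 member with a negative value, -0.43 (adjusted p = 0.349), and it was also the most variable member between animals (SD of 0.671 on the log2 scale). Of the degradation genes, Sel1l, the adaptor that joins substrates to the ubiquitin ligase Syvn1, averaged 235, 273, 293 and 259 CPM in CON and 281, 286, 353 and 308 CPM in HFhf, a log2 fold change of 0.21 (adjusted p = 0.0118, SE 0.0563). Syvn1 itself had 0.07 (adjusted p = 0.728) and the mannosidase-like Edem1 0.16 (adjusted p = 0.533). In males at ZT4 Edem1 was 842, 651 and 717 CPM in HFhf against 440, 379 and 398 CPM in CON, without a call. In females at ZT4 and in both sexes at ZT16 its ranges overlapped. Derl3, a derlin of the degradation channel, had 0.55 (adjusted p = 0.116) at a low level of 2.92 CPM over all libraries.

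One library carried part of this difference. In female ZT4 HFhf replicate 1, 28 of the 31 members stood above their group mean, with a median deviation of 0.43 on the log2 scale, the largest among the 56 libraries, while the median deviation of all genes was within rounding of 0. Its Hspa5 level was 1203 CPM, with 702 and 639 CPM in the other libraries of its group, and its Derl3 level was 8.68 CPM, with 2.8 and 3.26 CPM there. Without that library 5 members were called in the mean, namely Herpud1, Ppib, Ern1, Sel1l and Creb3l3, while Creld2 had 0.33 (adjusted p = 0.152), Pdia4 0.27 (0.0806), P4hb 0.18 (0.0894) and Dnajb11 0.17 (0.172, adjusted p in each case). The count was also 5 without female ZT4 CON replicate 2, female ZT4 CON replicate 3 or female ZT16 CON replicate 3. Herpud1, Ppib, Ern1 and Sel1l kept an adjusted p under 0.05 in all 26 fits that left out 1 library and under all 7 other alternatives. Creb3l3 kept its call in 14 of the 26 (0.15 to 0.21) and lost it without the filter, and P4hb kept it in 13 (0.18 to 0.24) and lost it without the filter and in a fit of only the groups compared.

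**Figure D3:**
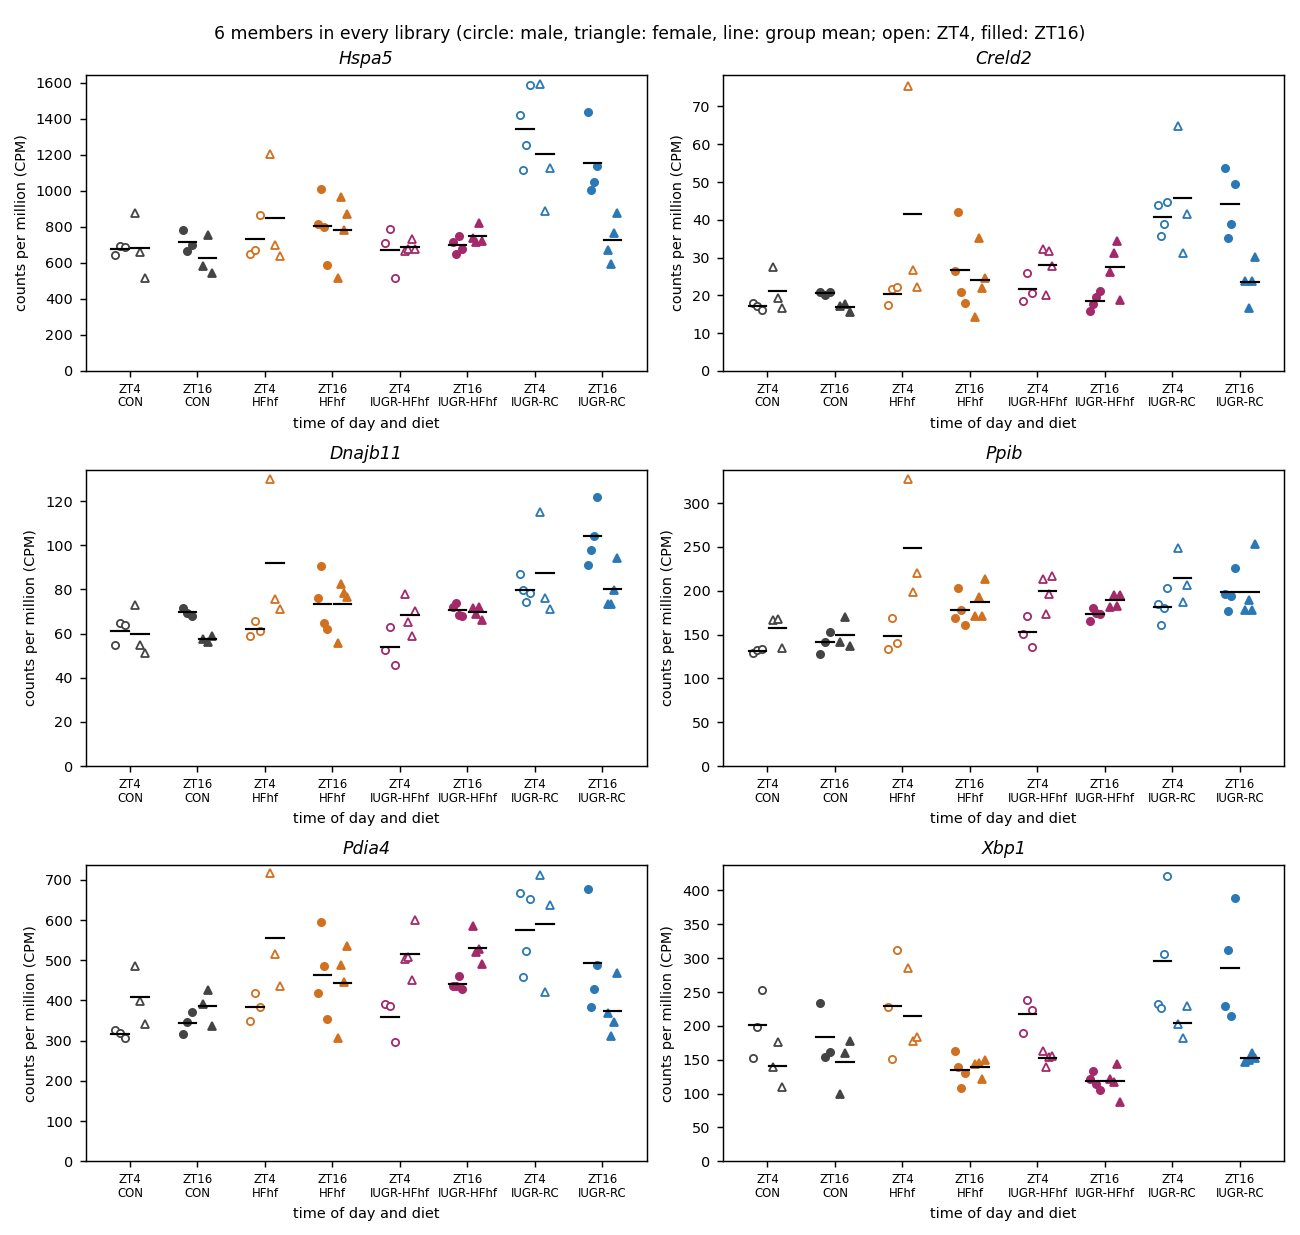
Hspa5, Creld2, Dnajb11, Ppib, Pdia4 and Xbp1 in each library, in CPM on the vertical axes, by diet and time. Circles are males, triangles females, open symbols ZT4, filled symbols ZT16 and lines group means; female ZT4 HFhf replicate 1 is the open orange triangle above the rest of its group, at 1203 CPM for Hspa5.

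In single strata of HFhf against CON, calls were limited to ZT4. In males at ZT4 the 1 called member was Herpud1 (0.688% of all genes called), and it missed the threshold without male ZT4 CON replicate 2 (0.86, adjusted p = 0.0963) or male ZT4 HFhf replicate 1 (1.02, adjusted p = 0.0537). In females at ZT4, 5 of the 31 rose (1.16% of all genes called): Derl3 with 2.11 (adjusted p = 0.00556, SE 0.434), Ppib with 0.67 (adjusted p = 0.00713), Herpud1, Creb3l3 with 0.50 (adjusted p = 0.0267) and Dnajb11 with 0.63 (adjusted p = 0.0448). Without female ZT4 HFhf replicate 1, Herpud1 was the 1 member still called there, with 0.93 (adjusted p = 0.0261). The count was 2 without any 1 of the 3 CON libraries and 3 without female ZT4 HFhf replicate 3. Herpud1 missed the threshold in each of these 4 fits. No member was called in females at ZT4 in a fit of only the groups compared. At ZT16 edgeR called 0 members in males (0.932% of all genes called, 4 members at an unadjusted p under 0.05, 0 by DESeq2 and 0 by voom) and 0 in females (1.26%, 5 members at an unadjusted p under 0.05, 0 by DESeq2 and 1 by voom). The authors' deposited tables, tested within each stratum, held as many members with an adjusted p under 0.05: 1 in males at ZT4, 5 in females at ZT4 and 0 at ZT16. The difference of the HFhf effect between the sexes called 0 of 31 in edgeR (0.0724% of all genes, 4 members at an unadjusted p under 0.05, 0 by DESeq2 and 0 by voom).

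The HFhf diet after growth restriction (IUGR-HFhf, 15 libraries) was set against the same 12 CON libraries, so that the comparisons with CON share controls. Of the 31 members 4 rose and 0 fell (12.9%, near the 10.5% of all genes called). The median was 0.06, and 21 of 31 were positive (67.7%, against 51.3% of all genes). Herpud1 had a mean log2 fold change of 0.59 (adjusted p = 1.06e-05, SE 0.0921), Ppib 0.30 (adjusted p = 0.00205, SE 0.068), Pdia4 0.33 (adjusted p = 0.0162, SE 0.0951) and P4hb 0.20 (adjusted p = 0.0282, SE 0.0631). Ppib was 151, 171 and 136 CPM, 165, 180, 175 and 174 CPM, 213, 174, 196 and 217 CPM and 181, 195, 183 and 195 CPM in the order of strata given above. Every value was above the CON libraries of its stratum. Pdia4 averaged 359, 440, 515 and 531 CPM and P4hb 1603, 1491, 1816 and 1511 CPM. P4hb kept its call in 18 of 27 fits without 1 library (0.17 to 0.23) and lost it without the filter on low counts. Hspa5 had a mean log2 fold change of 0.06 (adjusted p = 0.815, SE 0.102), and Xbp1 had -0.18 (adjusted p = 0.353). In single strata Herpud1 was called at ZT4 in males (0.462% of all genes called) and in females (0.679%), and no other member was. The call in males was lost without male ZT4 CON replicate 2 (adjusted p = 0.06) and in a fit of only the groups compared. At ZT16 edgeR called 0 members in males (3.31% of all genes, 5 members at an unadjusted p under 0.05, 0 by DESeq2 and 0 by voom) and 0 in females (2.22%, 4 members, 0 by DESeq2 and 1 by voom).

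Setting IUGR-HFhf directly against HFhf compared groups on the same diet after birth, without CON. The groups differ in growth restriction and also in the diet of the dams before birth, and these cannot be told apart. edgeR called 0 of 31 members (0.0543% of all genes called), 2 had an unadjusted p under 0.05, and DESeq2 and voom called 0. The values leaned lower in IUGR-HFhf: 3 of 31 were positive (9.68%, against 50.2% of all genes), with a median of -0.10. The 3 were 0.45 for Pdia5, 0.09 for Eif2ak3 and 0.03 for Herpud1. Xbp1 had -0.25 (adjusted p = 0.563, SE 0.109), Dnajb11 -0.19 (adjusted p = 0.499, SE 0.0776) and Hspa5 -0.17 (adjusted p = 0.736, SE 0.0986). The lower values in females at ZT4 (median -0.21, 6 of 31 positive) are measured against the HFhf group that holds replicate 1, and in males at ZT16 the median was -0.09 with 5 of 31 positive. In the 4 strata edgeR, DESeq2 and voom called 0 members each, with 1, 1, 8 and 0 at an unadjusted p under 0.05 in males at ZT4 and ZT16 and females at ZT4 and ZT16, and 0%, 0.0181%, 0.0181% and 0.00905% of all genes called.

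Time of day was compared within each diet, first in CON. There 4 members rose from ZT4 to ZT16 and 1 fell (16.1%, near the 13.2% of all genes called). Of the 4 that rose, 3 belong to protein degradation, as do 6 of the 31 members. Edem1, which guides misfolded glycoproteins to degradation, was 440, 379 and 398 CPM in males and 509, 425 and 495 CPM in females at ZT4. At ZT16 it was 852, 1186 and 1322 CPM and 880, 557 and 1242 CPM, above all ZT4 libraries of CON. Its log2 fold change was 1.19 (adjusted p = 5.98e-06, SE 0.183). Herpud1 had 0.77 (adjusted p = 5.58e-05, SE 0.136) and Derl3 1.68 (adjusted p = 0.000165, SE 0.321), with Derl3 at 0.996, 1.72 and 1.16 CPM and 0.877, 1.47 and 1.12 CPM at ZT4 and 5.51, 4.87 and 3.55 CPM and 2.21, 2.56 and 5.3 CPM at ZT16. The ZT16 libraries again lay above all ZT4 libraries. Sec61b, a subunit of the protein-conducting channel, rose by 0.47 (adjusted p = 0.00795, SE 0.125), and Ern1 fell, with -0.50 (adjusted p = 0.0105, SE 0.139). Without male ZT16 CON replicate 1 Ern1 had -0.41 (adjusted p = 0.0555). Hspa5 had -0.02 (adjusted p = 0.958) and Xbp1 -0.05 (adjusted p = 0.909). In each sex alone edgeR called 4 members (5.35% of all genes in males and 5.78% in females). Edem1, Herpud1 and Derl3 were among them in both. In males the count was 2 without any of the ZT4 CON replicates 1, 2 and 3 or the ZT16 CON replicates 1 and 3, and in females it was 1 without female ZT4 CON replicates 1 or 3 or female ZT16 CON replicate 3.

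On the HFhf diet a time difference of Herpud1 was not detected, and Xbp1 fell from ZT4 to ZT16. Of the 31 members 1 rose and 3 fell (12.9%, near the 10.2% of all genes called). Xbp1 was 228, 151 and 312 CPM in males and 285, 178 and 184 CPM in females at ZT4, against 163, 139, 108 and 130 CPM and 144, 145, 122 and 149 CPM at ZT16. Within each sex the times overlapped little or not at all: the female ranges were apart and 1 male library at ZT4 lay inside the ZT16 range. Its log2 fold change was -0.70 (adjusted p = 0.00211, SE 0.156). Eif2ak3 averaged 27.8, 19.3, 31 and 26.1 CPM and had -0.39 (adjusted p = 0.025, SE 0.117), and Syvn1, the ubiquitin ligase HRD1, averaged 83.8, 70.5, 96 and 68.4 CPM and had -0.37 (adjusted p = 0.0337, SE 0.117). Edem1 rose, from 842, 651 and 717 CPM in males and 505, 537 and 430 CPM in females to 958, 845, 875 and 1122 CPM and 1103, 894, 834 and 655 CPM (0.60, SE 0.171, adjusted p = 0.0175). Herpud1 had 0.04 (adjusted p = 0.887), Derl3 0.25 (adjusted p = 0.639) and Ern1 -0.21 (adjusted p = 0.337). Xbp1 kept its call in all 14 fits without 1 library, Edem1 in all but the fit without female ZT4 HFhf replicate 3 (0.55, adjusted p = 0.0631), Eif2ak3 in 10 and Syvn1 in 7. Without female ZT4 HFhf replicate 3 or female ZT16 HFhf replicate 3, 2 members were called. Whether the Xbp1 difference exceeds that of CON was tested as the change of the HFhf effect between the times, which had -0.65 (adjusted p = 0.256, SE 0.229).

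In IUGR-HFhf 5 members rose from ZT4 to ZT16 and 4 fell (9 of 31, near the share of all genes, of which 25.7% were called). The 3 channel genes rose together: Sec61b with 0.47 (adjusted p = 0.00191, SE 0.113), and the translocon-associated subunits Ssr3 with 0.37 (adjusted p = 0.0116, SE 0.111) and Ssr1 with 0.25 (adjusted p = 0.017, SE 0.0806). Group means were 35.5, 53.7, 36.8 and 46.8 CPM for Sec61b, 141, 193, 158 and 192 CPM for Ssr3 and 104, 125, 104 and 122 CPM for Ssr1. Edem1 had 0.51 (adjusted p = 0.0174, SE 0.164) and Derl3 0.81 (adjusted p = 0.0343, SE 0.292). The 4 that fell were Eif2ak3 with -0.51 (adjusted p = 0.000755, SE 0.113), Xbp1 with -0.62 (adjusted p = 0.00213, SE 0.151), Ern1 with -0.46 (adjusted p = 0.00514, SE 0.124) and Syvn1 with -0.30 (adjusted p = 0.045, SE 0.114). Xbp1 was 189, 238 and 223 CPM in males and 163, 139, 154 and 156 CPM in females at ZT4, against 122, 133, 114 and 106 CPM and 122, 117, 144 and 87.7 CPM at ZT16. All ZT4 males lay above all ZT16 males, and 1 ZT16 female lay among the ZT4 females. Herpud1 had -0.20 (adjusted p = 0.233). With 1 library left out, Derl3 kept its call in 7 of 15 fits and Syvn1 in 6 of 15. Edem1 lost it without male ZT4 IUGR-HFhf replicate 1, and Ssr1 without male ZT4 or female ZT4 IUGR-HFhf replicate 3.

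Growth-restricted rats on chow (IUGR-RC) were compared between the times within their own titles, which start with M in males and F in females. Of the 31 members 5 rose and 6 fell (35.5%, with 20% of all genes called). Herpud1 was 138, 131, 153 and 159 CPM in males and 131, 159 and 194 CPM in females at ZT4, against 186, 329, 196 and 192 CPM and 241, 209, 248 and 247 CPM at ZT16. The times were apart within each sex, as in CON, and the log2 fold change was 0.59 (adjusted p = 0.000498, SE 0.123). Edem1 had 0.76 (adjusted p = 0.000899, SE 0.165), Derl3 1.27 (adjusted p = 0.000878, SE 0.278), Atf6 0.36 (adjusted p = 0.000588, SE 0.075) and Creb3l3 0.30 (adjusted p = 0.0055, SE 0.079). Of the chaperones and partners 3 of 10 fell, and 2 of 5 disulfide isomerases. Hspa5 was 1422, 1117, 1254 and 1587 CPM in males and 1593, 890 and 1127 CPM in females at ZT4, against 1441, 1007, 1049 and 1138 CPM and 672, 593, 765 and 877 CPM at ZT16. The male ranges overlapped, and the female ranges were apart. Hspa5 had -0.47 (adjusted p = 0.0108, SE 0.136), and -0.34 (adjusted p = 0.0804) without female ZT4 IUGR-RC replicate 1, which also ended the calls of Pdia4, Pdia6 and Dnajb9. Manf, a small protein that binds Hspa5 and is also secreted, had -0.61 (adjusted p = 0.00396, SE 0.155) and Dnajb9 (ERdj4), a partner of Hspa5 in degradation, -0.50 (adjusted p = 0.0114, SE 0.146). Pdia4 had -0.44 (adjusted p = 0.0105, SE 0.126), Pdia6 -0.32 (adjusted p = 0.032) and Ssr3 -0.39 (adjusted p = 0.00829, SE 0.11). Pdia6 kept its call in 6 of 15 fits without 1 library (-0.39 to -0.26). Ssr3 missed the threshold without female ZT4 IUGR-RC replicate 3 (-0.30, adjusted p = 0.0574), and Creb3l3 (0.22) without the 4 doubted libraries, of which 2 are in this diet group.

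In single sexes the counts of the time comparisons changed when single libraries were left out. In HFhf 3 members were called in males (4.43% of all genes) and 6 in females (9.15%). The male count was 6 without male ZT4 HFhf replicate 2, and 1 without male ZT4 HFhf replicates 1 or 3 or male ZT16 HFhf replicates 2, 3 or 4. The female count was 10 without female ZT4 HFhf replicate 2, 0 without female ZT4 HFhf replicate 1 or female ZT16 HFhf replicate 1, and 1 without female ZT16 HFhf replicate 3. In IUGR-HFhf 3 were called in males (10.8%) and 1 in females (7.95%). The male count was 1 without male ZT4 IUGR-HFhf replicates 2 or 3 or male ZT16 IUGR-HFhf replicate 4, and the female count was 2 and 0 without female ZT4 IUGR-HFhf replicates 1 and 3. In IUGR-RC 5 were called in males (10.6%) and 6 in females (6.98%). The male count was 9 without male ZT16 IUGR-RC replicate 1, 2 without male ZT4 IUGR-RC replicate 3 and 3 without male ZT16 IUGR-RC replicate 2. The female count was 10 without female ZT4 IUGR-RC replicate 2, 0 without female ZT4 IUGR-RC replicate 1, 1 without female ZT16 IUGR-RC replicate 2 and 2 without female ZT16 IUGR-RC replicate 3.

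**Figure D4:**
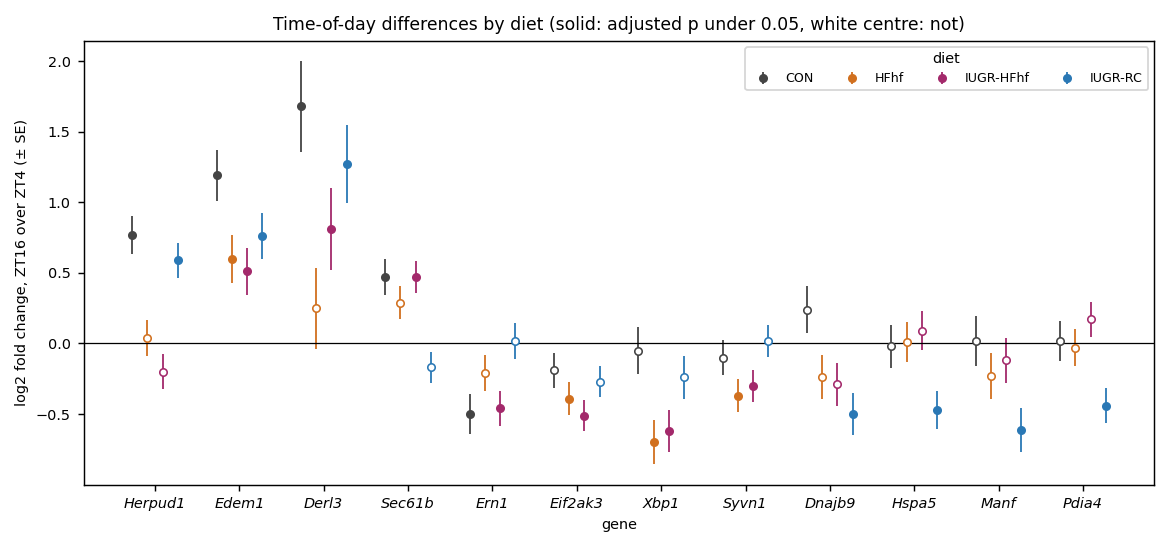
Log2 fold change of ZT16 over ZT4 (vertical axis, with SE) for 12 members (horizontal axis) in each diet, as the mean of both sexes. Solid symbols have an adjusted p under 0.05 and symbols with a white centre do not; Herpud1 is at 0.77 in CON and 0.59 in IUGR-RC, and at 0.04 in HFhf and -0.20 in IUGR-HFhf.

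To compare a time difference between diets without the CON libraries, the difference of IUGR-HFhf was set against that of IUGR-RC, a comparison added after the values had been seen. Both groups were growth-restricted and differ in the diet after birth and in title series. Of the 31 members 4 had a higher and 5 a lower difference in IUGR-HFhf (9 of 31, with 21.6% of all genes called). Herpud1 had -0.79 (adjusted p = 0.00117, SE 0.173), from changes of -0.20 in IUGR-HFhf and 0.59 in IUGR-RC. Ssr3 had 0.76 (adjusted p = 0.000671, SE 0.156), Sec61b 0.64 (adjusted p = 0.00323, SE 0.158), Pdia4 0.61 (adjusted p = 0.0123, SE 0.179) and Hspa5 0.56 (adjusted p = 0.0322, SE 0.194). Lower differences were found for Creb3l3 (-0.42, SE 0.111, adjusted p = 0.0059), P4hb (-0.38, adjusted p = 0.0182), Atf6 (-0.30, adjusted p = 0.038) and Ern1 (-0.48, adjusted p = 0.0484). Without the 4 doubted libraries Ern1 had -0.30 (adjusted p = 0.253) and missed the threshold, as did Atf6 (adjusted p = 0.076) and P4hb (adjusted p = 0.153). Ern1 kept its call in 11 of 30 fits without 1 library (-0.59 to -0.35) and Atf6 in 19 (-0.36 to -0.24), and both lost it without the filter and in a fit of only the groups compared. Hspa5 missed the threshold in 6 of 30 fits without 1 library, those without male ZT4 IUGR-HFhf replicate 3, male ZT4 IUGR-RC replicates 1 or 4, male ZT16 IUGR-RC replicate 2, female ZT4 IUGR-RC replicate 1 and female ZT16 IUGR-RC replicate 2.

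IUGR-RC was also set against CON, where diet history and title series cannot be told apart. Of the 31 members 20 were higher and 4 lower (77.4%), in a comparison with 62.9% of all genes called. The median was 0.27, against 0.03 over all genes. Higher members were 8 of 10 chaperones and partners, 4 of 5 disulfide isomerases, both lectin chaperones, both transcription factors, 3 of 3 channel subunits and Derl1. The largest was Creld2 with 0.99 (adjusted p = 2.79e-07, SE 0.152), at 17.1, 20.6, 21.2 and 16.8 CPM in CON and 40.8, 44.3, 45.8 and 23.6 CPM in IUGR-RC. Sec61b had 0.98 (adjusted p = 6.08e-14, SE 0.0845), Dnajb9 0.81 (adjusted p = 2.16e-08, SE 0.112), Ssr3 0.78 (adjusted p = 3.58e-11, SE 0.0834), Pdia6 0.69 (adjusted p = 5.95e-10, SE 0.0821), and Canx 0.47 (adjusted p = 8.5e-09, SE 0.0624). Hspa5 was 646, 695 and 689 CPM in CON males at ZT4, 781, 664 and 698 CPM in CON males at ZT16, 878, 661 and 516 CPM in CON females at ZT4 and 584, 757 and 543 CPM in CON females at ZT16. Apart from females at ZT16, where the ranges overlapped, all IUGR-RC libraries given above stood over the CON libraries of their stratum, and the log2 fold change was 0.68 (adjusted p = 1.83e-07, SE 0.103).

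Among the sensors, Ern1 and Atf6 were lower in IUGR-RC. Ern1 was 19.9, 29.7, 21.6 and 19.2 CPM, 17.7, 21.9, 20.1 and 30.4 CPM, 31.5, 34.2 and 15.8 CPM and 27.6, 28.6, 30.8 and 26.1 CPM in IUGR-RC. Its log2 fold change against CON was -0.91 (adjusted p = 1.3e-11, SE 0.0941), and Atf6 had -0.46 (adjusted p = 6.63e-10, SE 0.0555), with group means of 94.5, 110, 84.2 and 94.9 CPM in CON and 62.8, 78.5, 59.7 and 78.5 CPM in IUGR-RC. Sel1l and Syvn1 were the other lower members, with -0.42 (adjusted p = 4.62e-09, SE 0.0551) and -0.24 (adjusted p = 0.0131, SE 0.0847). Eif2ak3 (-0.07, adjusted p = 0.466) and Herpud1 (0.07, adjusted p = 0.52) were not called. In single strata 15 members were higher and 3 lower in males at ZT4 (46.7% of all genes called), the same numbers in ZT16 males (37.8%) and ZT4 females (38.1%), and 8 and 0 in females at ZT16 (24.4%). The counts fell to 11 in males at ZT16 without male ZT16 CON replicate 2 and to 10 in females at ZT4 without female ZT4 IUGR-RC replicate 1. In females at ZT16 they fell to 3 without female ZT16 CON replicate 1 and to 2 without female ZT16 CON replicate 3 or female ZT16 IUGR-RC replicate 4. The macrophage markers summed to between 825 and 1596 CPM in IUGR-RC and between 675 and 982 CPM in CON, with 12 of 12 detected, and their part in these values was not tested.

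Males and females were compared within each diet as the mean of both times. In IUGR-RC the titles start with M in males and F in females, so sex and title letter cannot be told apart there. Derl1, a derlin of the degradation channel, was higher in males in all 4 diets, with 0.31 (adjusted p = 0.00127, SE 0.0717) in CON, 0.24 (adjusted p = 0.00651, SE 0.0672) in HFhf, 0.26 (adjusted p = 0.00319, SE 0.0647) in IUGR-HFhf and 0.24 (adjusted p = 0.00406, SE 0.0645) in IUGR-RC. Its group means were 91.6, 103, 78.6 and 78 CPM in CON, 98.1, 101, 89.1 and 79.2 CPM in HFhf, 91.3, 100, 77.3 and 82.8 CPM in IUGR-HFhf and 110, 112, 95 and 93.1 CPM in IUGR-RC. It was the 1 member called in CON (16.2% of all genes called), with 2 called without male ZT4 CON replicate 1, female ZT4 CON replicate 2 or female ZT16 CON replicate 3. In HFhf the call of Derl1 was lost without male ZT4 HFhf replicate 2, and in IUGR-RC it was lost without the 4 doubted libraries (0.13) and in a fit of only the groups compared (0.22). In HFhf, Ppib (-0.41, SE 0.0941, adjusted p = 0.000782), Creb3l3 (-0.32, SE 0.0818, adjusted p = 0.00278) and Sel1l (-0.22, adjusted p = 0.0361) were lower in males (20.2% of all genes called), and in IUGR-HFhf Pdia4 was (-0.40, SE 0.127, adjusted p = 0.0252, 15.1%). The HFhf count was 7 without male ZT16 HFhf replicate 2 or female ZT4 HFhf replicate 2. The call of Pdia4 was lost without male ZT4 IUGR-HFhf replicate 3, female ZT4 IUGR-HFhf replicate 4 or female ZT16 IUGR-HFhf replicate 1. In IUGR-RC 6 members were higher in males and 1 lower (30.4%): Xbp1 with 0.72 (adjusted p = 0.000222, SE 0.152), Derl1, Pdia6 with 0.34 (adjusted p = 0.0132), Hspa5 with 0.42 (adjusted p = 0.0174), Manf with 0.47 (adjusted p = 0.0193), Hsp90b1 with 0.34 (adjusted p = 0.0352) and, lower, Sel1l with -0.23 (adjusted p = 0.0134). This count was 4 without the 4 doubted libraries, where Hspa5 (0.21), Manf (0.23), Hsp90b1 (0.23) and Pdia6 (0.25) also missed the threshold. With 1 library left out it was 3 without female ZT4 IUGR-RC replicate 2, 4 without male ZT16 IUGR-RC replicate 1, 11 without female ZT4 IUGR-RC replicate 1, 12 without male ZT4 IUGR-RC replicate 2 and 14 without female ZT4 IUGR-RC replicate 3. The difference of the IUGR-HFhf effect between the sexes called 0 of 31 in edgeR (0.281% of all genes), with 0 at an unadjusted p under 0.05, 0 by DESeq2 and 0 by voom.

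Other members called in several comparisons had these group means, with n of 3 or 4 libraries each. Hspa5 averaged 677, 714, 685 and 628 CPM in CON, 731, 803, 848 and 784 CPM in HFhf, 671, 698, 689 and 750 CPM in IUGR-HFhf and 1345, 1158, 1203 and 727 CPM in IUGR-RC. The CON, HFhf and IUGR-HFhf means of Hspa5 thus lay between 628 and 848 CPM, and those of IUGR-RC at ZT4 were 1345 and 1203 CPM. Dnajb9 averaged 46.7, 51.5, 36.5 and 46.5 CPM in CON, 63.2, 38.1, 45.8 and 54.3 CPM in HFhf, 52, 36.9, 46 and 43 CPM in IUGR-HFhf and 109, 67.2, 80.9 and 65.5 CPM in IUGR-RC. Dnajb11 averaged 61.2, 69.7, 59.6 and 57.5 CPM in CON, 61.9, 73.5, 92.1 and 73.3 CPM in HFhf, 53.8, 70.6, 68.2 and 69.7 CPM in IUGR-HFhf and 79.9, 104, 87.6 and 80.1 CPM in IUGR-RC. Their highest means were in IUGR-RC. Manf averaged 33.9, 34.8, 38.1 and 38.2 CPM in CON, 39, 34.2, 52.5 and 43.7 CPM in HFhf, 38.6, 32, 40.1 and 40.8 CPM in IUGR-HFhf and 76, 63, 69.6 and 36 CPM in IUGR-RC. Pdia6, an isomerase that also tunes IRE1 alpha, averaged 214, 184, 172 and 164 CPM in CON, 184, 211, 244 and 170 CPM in HFhf, 204, 179, 202 and 165 CPM in IUGR-HFhf and 350, 314, 308 and 221 CPM in IUGR-RC. The means of Manf and Pdia6 in IUGR-RC were lower at ZT16 than at ZT4 in both sexes. Eif2ak3 averaged 25.5, 22.6, 29.5 and 25.6 CPM in CON, 27.8, 19.3, 31 and 26.1 CPM in HFhf, 29.5, 21.6, 36.3 and 24.4 CPM in IUGR-HFhf and 26.2, 19.6, 27.3 and 25.5 CPM in IUGR-RC. Its ZT4 mean was above its ZT16 mean in all 4 diets and both sexes. Syvn1 averaged 73.5, 79.5, 82.9 and 66.1 CPM in CON, 83.8, 70.5, 96 and 68.4 CPM in HFhf, 84.7, 63.7, 81.7 and 71.7 CPM in IUGR-HFhf and 56.5, 63.1, 70.9 and 65.8 CPM in IUGR-RC, and Sel1l averaged 235, 273, 293 and 259 CPM in CON, 281, 286, 353 and 308 CPM in HFhf, 268, 272, 311 and 290 CPM in IUGR-HFhf and 166, 199, 206 and 221 CPM in IUGR-RC. Sel1l was among the least variable members between animals, with an SD of 0.133 on the log2 scale around the group means, and Derl1 was the least with 0.112.

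Sec61b averaged 35.1, 52.5, 32.9 and 42 CPM in CON, 34.8, 57.1, 44.5 and 40.5 CPM in HFhf, 35.5, 53.7, 36.8 and 46.8 CPM in IUGR-HFhf and 89.5, 83.7, 77.9 and 65.8 CPM in IUGR-RC. Ssr1 averaged 115, 127, 105 and 116 CPM in CON, 120, 121, 111 and 116 CPM in HFhf, 104, 125, 104 and 122 CPM in IUGR-HFhf and 146, 140, 150 and 150 CPM in IUGR-RC, and Ssr3 averaged 155, 209, 158 and 169 CPM in CON, 176, 213, 177 and 186 CPM in HFhf, 141, 193, 158 and 192 CPM in IUGR-HFhf and 355, 289, 319 and 227 CPM in IUGR-RC. The IUGR-RC means of these channel genes were above all others. Of members not called in 2 or more of these comparisons, Hsp90b1 (GRP94), the HSP90 of this compartment, had group means between 584 and 1225 CPM, and the nucleotide exchange factor Hyou1 between 161 and 327 CPM. Dnajc3, which holds back PERK, lay between 213 and 306 CPM and Sdf2l1, a partner of Dnajb11, between 10.9 and 36.9 CPM. The means of Pdia3 (ERp57) ranged from 531 to 732 CPM, of Pdia5 from 18.2 to 42.1 CPM, of Calr from 748 to 1192 CPM and of Canx from 529 to 896 CPM. Hyou1, Dnajc3 and Pdia5 were called in none of the 8 mean comparisons of diet or time.

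Between animals of the same group, a set of chaperones varied with Hspa5, and no such relation was detected for the sensors or Herpud1. For each gene the group mean was taken off log2(CPM + 0.5) and the remainder was correlated with that of Hspa5 over the 56 libraries, with a two-sided permutation test within groups (100000 resamples) and Benjamini-Hochberg adjustment over 11046 genes. Of the other 30 members 11 passed, all with a positive r, while 0.344% of all genes passed (38 of 11046), and the median r was 0.421 over members and -0.00313 over all genes. Hsp90b1 had Pearson's r = 0.876 and Spearman's rho = 0.833 (adjusted permutation p = 0.0158 for both). Manf had r = 0.849 and rho = 0.839, Pdia4 r = 0.847 and rho = 0.761, Creld2 r = 0.826 and rho = 0.751, and Pdia6 r = 0.754 and rho = 0.708, each with an adjusted permutation p of 0.0158 for r and for rho. These rest on a permutation p of 1e-05, the smallest that the resamples can give. Calr (0.753), Pdia3 (0.724), Hyou1 (0.719), Ppib (0.679), Dnajc3 (0.676) and Canx (0.612) were the others by r. Dnajb11 had r = 0.729 with an adjusted permutation p of 0.0588. Herpud1 had r = -0.0876 (adjusted permutation p = 0.885), Ern1 -0.132, Atf6 -0.0113 (adjusted permutation p = 0.987) and Edem1 -0.346 (adjusted permutation p = 0.269).

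The relation was checked without particular libraries. The Hspa5 values farthest from the median were those of female ZT4 HFhf replicate 1 (0.56 above its group mean on the log2 scale) and female ZT16 HFhf replicate 1 (0.57 below it). Without both, 4 members passed and r was 0.821 for Hsp90b1, 0.799 for Pdia4, 0.791 for Manf and 0.752 for Creld2, while Calr had 0.628 (adjusted permutation p = 0.0868). Without the IUGR-RC libraries 0 members passed, by r or by rho, with 41 libraries left. There r was 0.874 for Hsp90b1 and 0.823 for Manf (adjusted permutation p = 0.0552 for both), and the median over members was 0.406. After adjustment, the smallest permutation p that the resamples can give, 1e-05, falls under 0.05 only where several genes come near it. The count of 0 therefore cannot show whether the relation was lost. Of genes outside the list, the 10 with the largest r were Ubxn4 (0.718), Ggct (0.713), Stip1 (0.703), Ahsa1 (0.679), Cct3 (0.669), Hn1l (0.658), Morf4l2 (0.651), Rpn1 (0.645), Sec23b (0.627) and Tars (0.624).

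**Figure D5:**
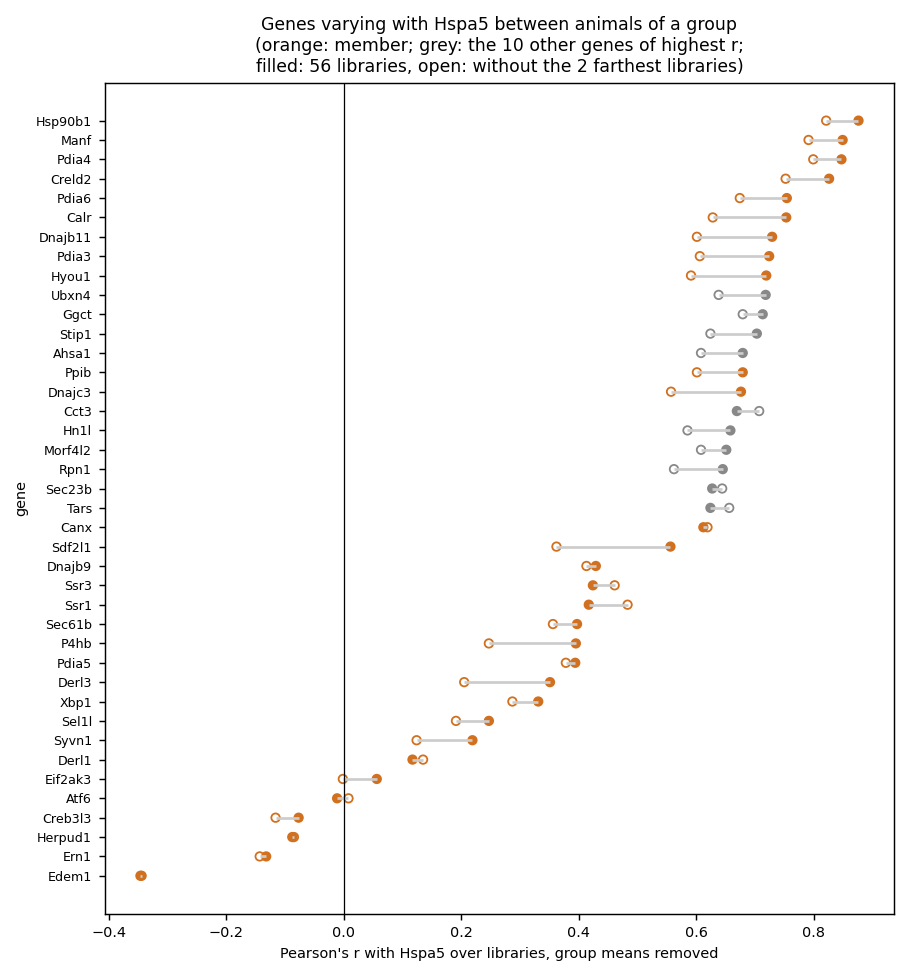
Pearson's r with Hspa5 over libraries, group means removed (horizontal axis), for the other 30 members in orange and the 10 other genes of highest r in grey (vertical axis). Filled symbols use 56 libraries and open symbols leave out the 2 farthest; Hsp90b1 is highest at 0.876 and Edem1 lowest at -0.346.

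Genes around the response were counted from lists of textbook composition. The ATF4 and CHOP branch, downstream of PERK, had 6 genes higher and 2 lower of 32 in HFhf (25.0%, with 7.94% of all genes called) and 5 and 2 in IUGR-HFhf (21.9%, with 10.5%). The genes called lower in either diet are not named here. Asns, the asparagine synthetase, averaged 2.01, 1.21, 2.34 and 1.34 CPM in CON, 6.94, 2.55, 7.12 and 6.02 CPM in HFhf and 4.75, 3.53, 7.13 and 3.76 CPM in IUGR-HFhf. It had 1.64 (adjusted p = 4.62e-05, SE 0.273) in HFhf and 1.45 (adjusted p = 0.000196, SE 0.27) in IUGR-HFhf. The secreted hormone Fgf21 had 2.07 (adjusted p = 0.000106, SE 0.358) and 1.60 (adjusted p = 0.00203, SE 0.356), and the factor Atf5 0.69 (adjusted p = 0.000313) and 0.58 (adjusted p = 0.00169). Aldh1l2, a mitochondrial folate enzyme, had 0.49 (adjusted p = 0.00247) and 0.58 (adjusted p = 0.000187). Fgf21 was 34, 22.7 and 135 CPM in HFhf females at ZT4, against 5.99, 6.75 and 9.6 CPM in CON. In males at ZT4 and ZT16 and females at ZT16 it averaged 10.8, 8.25 and 5.64 CPM in HFhf, against 4.59, 1.99 and 1.47 CPM in CON. The branch's own factors did not pass: Atf4 had 0.04 (adjusted p = 0.822) in HFhf and -0.07 (adjusted p = 0.638) in IUGR-HFhf, and Ddit3 (CHOP) 0.11 (adjusted p = 0.694) and -0.08 (adjusted p = 0.781). From ZT4 to ZT16 the list had 1 gene higher and 6 lower in CON, 1 and 11 in HFhf, 1 and 11 in IUGR-HFhf and 1 and 6 in IUGR-RC (21.9%, 37.5%, 37.5% and 21.9% of the list, with 13.2%, 10.2%, 25.7% and 20% of all genes called). Atf4 fell in each of the 4, with -0.66 (adjusted p = 1.6e-05), -0.44 (adjusted p = 0.00265), -0.34 (adjusted p = 0.00782) and -0.52 (adjusted p = 9.89e-05), and so did Atf5, with -1.16 (adjusted p = 1.96e-05), -0.92 (adjusted p = 0.000368), -0.80 (adjusted p = 0.000558) and -0.80 (adjusted p = 0.000737). Against CON, IUGR-RC had 11 of 32 higher and 4 lower (46.9%), with 62.9% of all genes called.

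Transport from the endoplasmic reticulum to the Golgi had 9 of 37 genes higher and 0 lower in HFhf (24.3%) and 10 and 0 in IUGR-HFhf (27%), where 7.94% and 10.5% of all genes were called. Kdelr2, the receptor that returns chaperones from the Golgi, had 0.29 (adjusted p = 0.000339) and 0.25 (adjusted p = 0.00171). Sec24d, a coat subunit of export vesicles, had 0.29 (adjusted p = 0.000752) in HFhf, and Copg1, a coat subunit of return vesicles, 0.22 (adjusted p = 0.00144) in IUGR-HFhf. Of 32 other folding and redox genes 4 rose and 0 fell in each of these comparisons (12.5%), among them Fkbp11, a prolyl isomerase, with 0.51 (adjusted p = 0.000533) and 0.55 (adjusted p = 0.000118), and Prdx4, a peroxiredoxin, with 0.33 (adjusted p = 0.00389) and 0.33 (adjusted p = 0.00212). Among 14 targets of CREBH, 5 rose and 1 fell in HFhf (42.9%) and 5 and 3 in IUGR-HFhf (57.1%). Of those that rose, the apolipoprotein gene Apoa4 had 0.92 (adjusted p = 9.15e-07) and 0.90 (adjusted p = 9.13e-07), and Apoa1 had 1.30 (adjusted p = 1.22e-05) and 1.51 (adjusted p = 9.05e-07). The CREBH targets that fell are not named here. Translocation and glycosylation had 1 higher and 0 lower of 32 in HFhf, namely Ssr2 with 0.28 (adjusted p = 0.0254), and 0 and 2 in IUGR-HFhf (3.12% and 6.25%, below the shares of all genes). The other degradation genes had 2 higher and 0 lower of 27 in HFhf (7.41%) and 1 and 2 in IUGR-HFhf (11.1%), near the shares of all genes. Against CON, IUGR-RC had 20 higher and 8 lower genes in transport, 21 and 4 in folding and 8 and 1 in CREBH targets. It had 25 and 1 in translocation and 16 and 2 in degradation, with 62.9% of all genes called. Diet history and title series cannot be told apart there.

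More heat shock genes of the cytosol and mitochondria were called between the times of day than in the HFhf and IUGR-HFhf diets against CON. Of 24, 0 rose and 1 fell in HFhf and 1 and 1 in IUGR-HFhf, with the small heat shock protein gene Hspb1 lower in both, with log2 fold changes of -0.74 (adjusted p = 0.0233) and -0.84 (adjusted p = 0.00623). From ZT4 to ZT16, however, 13 of 24 rose and 0 fell in CON, 12 and 0 in HFhf, 15 and 0 in IUGR-HFhf and 11 and 0 in IUGR-RC, where 13.2%, 10.2%, 25.7% and 20% of all genes were called. Hsph1, a nucleotide exchange factor of HSP70, had 0.94 (adjusted p = 0.000109) in CON and 0.65 (adjusted p = 0.00652) in HFhf, and the mitochondrial chaperonin Hspd1 had 0.47 (adjusted p = 0.000375) in HFhf and 0.45 (adjusted p = 0.000185) in IUGR-RC. Over the same interval Hspa5 passed in IUGR-RC, with a fall, and in no other diet.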

How the data were processed

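Liver RNA of 56 rats was sequenced from stranded libraries. Per the labels' protocols the kit removed ribosomal RNA, while the molecule label is polyA RNA. The authors deposited read counts per gene, made with tools that the submitters' processing notes list as FastQC, STAR, Subread, featureCounts and DESeq2 with the build rn6 and no versions. The authors' deposited tables of log2 fold changes and p-values for each diet against CON were read for comparison only.

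Groups came from the study group, sex and time in the labels, and count columns were matched to samples by title. Rows whose symbols had been turned into dates (26) stayed in the library totals, and 2487 genes without a read in any library were not tested. Counts were TMM-scaled, filtered with filterByExpr and tested with edgeR 4.0.16 (R 4.3.3) by the robust quasi-likelihood test with 1 mean per group over all 56 libraries (40 residual degrees of freedom). P-values were two-sided, with Benjamini-Hochberg adjustment over 11047 genes and a threshold of 0.05. The SE is the log2 fold change divided by the square root of F. The labels give no litters, and the tests take the animals as independent, although restriction and diet before birth were given to the dams. Where animals of a group share a litter, p-values for diet can be too small. Replicate pairs differed beyond counting noise in every group (chi-square per degree of freedom from 8.91 to 111).

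The alternatives were RLE scaling, no filter, DESeq2 1.42.0, voom with quality weights (limma 3.58.1), fits of the compared groups alone, without the 4 doubted libraries or the IUGR-RC libraries, and without each library in turn. Tests were checked on simulated counts. Members and lists were chosen with earlier results of these data known, and the promoter windows and motifs after them. The window of 1 member is not reported here. Named members were all those called where 8 or fewer were, otherwise the 8 of smallest p, plus Ern1, Atf6, Eif2ak3, Xbp1, Hspa5 and Herpud1, with group values for those called in 2 or more mean comparisons of diet or time. Other lists name up to 3 called genes. Other members were named after their values were seen. No gene lengths were used, so levels are not compared between genes. The labels name mouse as the tissue's source in 1 field and rat as the organism. Rat is used here.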

Additional observations from a re-analysis of the deposited data

Results flagged for a closer look

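In groups of 4 libraries, a value was marked where the gap between an end value and its neighbour relative to the group's range was above Dixon's 95% critical value. Of 248 combinations of member and group, 21 were marked (8.47%), where chance marks about 1 in 20. Values are CPM. In female ZT16 IUGR-RC 6 were marked, all in replicate 4: Dnajc3 (255), Ppib (253), Pdia3 (779), P4hb (2056), Canx (795) and Ssr1 (191). In male ZT16 IUGR-RC they were Hsp90b1 (1516) and Canx (1060) in replicate 1, Herpud1 (329) and Edem1 (1211) in replicate 2, and Pdia5 (8.24) in replicate 3. In male ZT16 IUGR-HFhf they were Sdf2l1 (11.9) in replicate 1, Herpud1 (211) in replicate 2 and Derl1 (114) in replicate 4. In female ZT16 IUGR-HFhf they were Herpud1 (210) and Ssr3 (224) in replicate 1, Manf (44.7) and Derl3 (6.57) in replicate 3, and P4hb (1582) in replicate 4. In female ZT16 HFhf they were Ssr3 (203) in replicate 1 and Sel1l (350) in replicate 2.

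Differences of an effect between groups were marked where their own edgeR test had an adjusted p under 0.05. The change of the diet effect from ZT4 to ZT16 was -0.73 for Herpud1 in HFhf and -0.97 in IUGR-HFhf, on the log2 scale. The difference of the ZT16 over ZT4 change, IUGR-HFhf minus IUGR-RC, was -0.48 for Ern1, -0.30 for Atf6, -0.42 for Creb3l3, 0.56 for Hspa5, 0.61 for Pdia4, -0.38 for P4hb, -0.79 for Herpud1, 0.64 for Sec61b and 0.76 for Ssr3. The last 9 come from a comparison chosen after the data were seen, and diet after birth and title series cannot be told apart in their size.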

How the results depend on the processing

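No paired analysis was possible because the labels share no replicate numbers, which are accession order here. Depth limits low members such as Derl3, single strata rest on 3 or 4 animals a group, and IUGR-RC differs from all other libraries in its title series. No scaling moved the median of all genes by over 0.1.

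Counts of called members with 1 library left out ran, for HFhf against CON, from 5 to 10 in the mean, 0 to 1 in males at ZT4, 0 to 0 in males at ZT16, 1 to 5 in females at ZT4 and 0 to 0 in females at ZT16. For IUGR-HFhf against CON they ran from 3 to 5 in the mean, 0 to 1 in males at ZT4 and 1 to 1 in females at ZT4, and against HFhf they were 0. For IUGR-RC against CON they ran from 21 to 24 in the mean, 13 to 17, 11 to 17, 10 to 18 and 2 to 6 in the strata. For time of day they ran from 4 to 6 in CON (males 2 to 3, females 1 to 4), 2 to 5 in HFhf (1 to 6, 0 to 10), 6 to 9 in IUGR-HFhf (1 to 3, 0 to 2) and 9 to 14 in IUGR-RC (2 to 9, 0 to 10). For sex they ran from 1 to 2 in CON, 3 to 7 in HFhf, 1 to 3 in IUGR-HFhf and 3 to 14 in IUGR-RC. The difference of the HFhf effect between the times gave 0 to 1 and that of IUGR-HFhf 1 to 1, and the added comparison 6 to 11.

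Other counts moved by over 1.5 times as follows, and the cause was not tested beyond the fewer libraries or genes of a fit. With voom, HFhf against CON gave 2 in males at ZT4 and 1 in females at ZT16, IUGR-HFhf 1 in females at ZT16, time of day 8 in CON, 5 in HFhf males, 8 in IUGR-HFhf males, 2 in IUGR-HFhf females, 10 in IUGR-RC males and 10 in IUGR-RC females, and sex 2 in CON and 7 in HFhf. With DESeq2, time gave 5 in HFhf males and 10 in IUGR-RC females, and sex 11 in IUGR-RC. Without the filter, IUGR-RC against CON gave 5 in females at ZT16, time 3 in HFhf females and the HFhf difference between the times 0. Without the 4 doubted libraries, HFhf gave 1 in females at ZT16, time 1 in HFhf males and sex 4 in IUGR-RC. Without the IUGR-RC libraries, HFhf gave 2 in males at ZT4 and 1 in females at ZT16, time 6 in IUGR-HFhf males, sex 2 in CON and the correlation with Hspa5 0. The number of resamples limits this last count. Without the 2 farthest libraries the correlation gave 4. With only the groups compared, HFhf gave 2 in males and 0 in females at ZT4, IUGR-HFhf 0 in males at ZT4 and 1 at ZT16, IUGR-RC 11 in females at ZT4, time 0 in HFhf males, 2 in HFhf females, 8 in IUGR-HFhf males, 7 in IUGR-RC, 2 in IUGR-RC males and 0 in IUGR-RC females, and sex 2 in CON, 4 in IUGR-HFhf and 1 in IUGR-RC.

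Of the genes followed through the alternatives, those that changed sign were Atf6 and Eif2ak3 in HFhf against CON, both near 0. Atf6 had 0.01 in the main test, -0.00078 without the filter and from -0.02 to 0.02 with 1 library left out. Eif2ak3 had 0.0026, with -0.0024 under RLE, -0.01 without the filter, -0.0019 with DESeq2, -0.01 without the doubted libraries and from -0.04 to 0.03 with 1 library left out.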
